A study of Mus musculus with 12 samples.

Results

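The genotype by temperature interaction asks, gene by gene, whether brown fat without Zbtb7b changed its RNA in the cold by the same amount as wild-type brown fat. It was taken over all 12 arrays of the series, as the cold minus room temperature difference in knockout (KO) mice minus the same difference in wild-type (WT) mice. All 22180 genes that could be given a single probe set entered it. A value above 0 means that the cold change was more positive in KO, and a value below 0 that it was more positive in WT. Values are on the log2 scale, on which 1 unit is a doubling, and a gene passed when its p-value, adjusted over all 22180 genes, was under 0.05.

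The arrays measured brown adipose tissue RNA from male mice, 10 weeks old and fed standard chow. The WT room temperature and KO room temperature groups were housed at 22 °C, and the WT cold and KO cold groups spent 4 h at 4 °C, with 3 arrays in each of the 4 groups. KO mice lacked Zbtb7b, a zinc finger protein that controls transcription and is known from the choice of T cells for the CD4 lineage. The labels do not describe the knockout allele or the cells in which it acts. The titles call the arrays biological replicates while another field numbers pools, so how many animals stand behind an array is not known, and each p-value rests on the spread of these samples alone.

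Cold is sensed in the skin, and sympathetic nerves then release noradrenaline onto brown adipocytes. Beta-adrenergic receptors raise cAMP, which activates protein kinase A and the transcription factor CREB, and genes such as Ucp1, Ppargc1a and Dio2 are switched on within hours. Dio2 encodes the deiodinase that turns the prohormone thyroxine into active thyroid hormone inside the brown adipocyte. Active thyroid hormone and cAMP act together on Ucp1, which encodes the uncoupling protein that lets mitochondria burn fuel as heat.

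A description field of the labels names liver and another knockout, against the titles and the tissue labels. The brown fat gene Ucp1 lay between 11.55 and 12.95 on all 12 arrays, and the mean of 18 hepatocyte genes between 2.56 and 2.78, close to the median signal of the arrays (2.63 to 2.83). Zbtb7b lay between 4.26 and 4.76 on the WT arrays and between 2.96 and 3.62 on the KO arrays, with no overlap. Whether the deletion covers its probe set is not known, so this checks the labels only. Its own interaction was -0.19 ± 0.22 (SE, 95% interval -0.68 to 0.30, adjusted p = 0.789). Arrays of the same group also differed in markers of other cells. The mean of 22 skeletal muscle genes ranged from 3.16 to 8.21 over the 12 arrays, and the mean of 16 neutrophil genes was 4.62 on KO cold replicate 3 against 2.20 to 2.76 on the other 11 arrays. Because whole tissue was measured, fewer cells of a type and less RNA per cell cannot be told apart.

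Of 22180 genes, 6 passed in the interaction, which is 0.0271% of those tested. The cold change was more positive in KO for 5 of them (Dio2, Tmem82, Aloxe3, Olfr519 and Adam12) and more positive in WT for Socs2. Dio2 had the largest value of the 6, a cold induction 10.6-fold greater in KO than in WT. Of all genes, 97.4% had values within 1 of 0, while 238 lay above 1 and 334 below -1. Values lay above 0 for 10770 genes and below 0 for 11410, the background for the sign counts of the lists. The median standard error was 0.248, and with 3 arrays per group no value under 1.17 in size passed. At an unadjusted p under 0.05, 1015 genes were higher (4.58%) and 1309 lower (5.9%), and these shares are the background for the gene lists. Brighter genes leaned further down. Of the 8475 whose mean reached 5, 3.83% were higher and 9.18% lower, with a median of -0.11. That is the nearer background for lists made mostly of such genes, among them heat shock (21 of 21), proteasome (29 of 31) and macrophage (12 of 17). Centring each array on its median moved the median of all genes from -0.01 to -0.09 and the split to 650 higher and 1801 lower, and cyclic loess gave 1079 and 1061, so the excess of lower values depended on the scaling.

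The cold change itself was large in both genotypes: 17.4% of genes passed in WT and 19.2% in KO. The knockout changed far fewer, 0.55% at room temperature and 0.911% in the cold. These 4 contrasts share arrays with the interaction and with each other, so for each gene below they are given side by side to show in which group the difference lay.

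**Figure D1:**
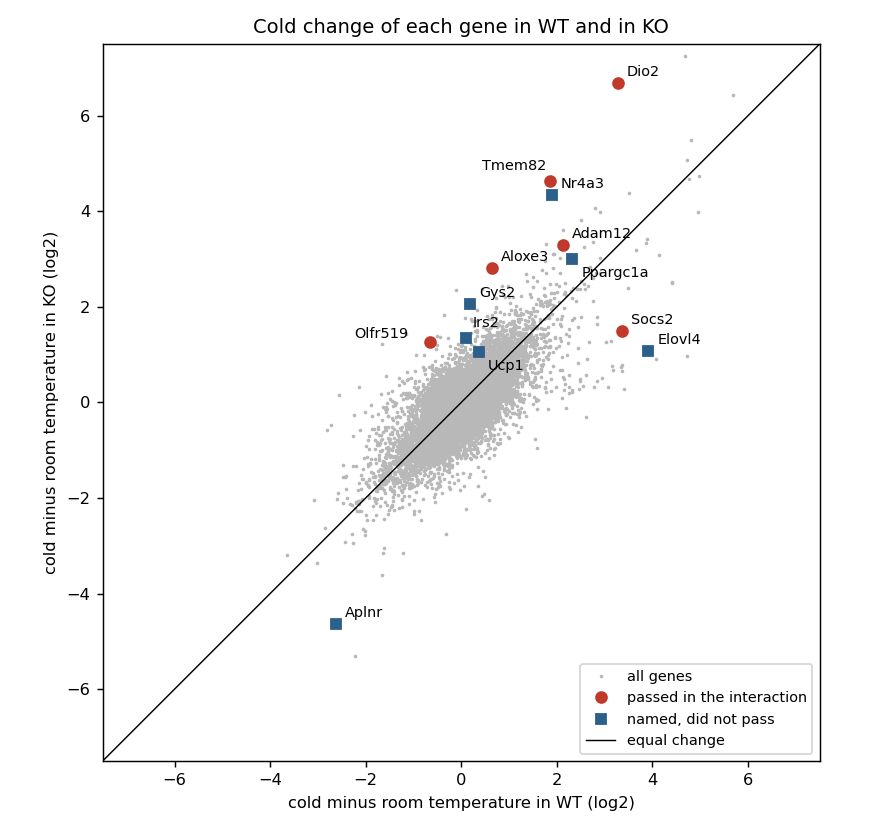
Each grey point is 1 of 22180 genes, with its cold minus room temperature difference (log2) in WT on the horizontal axis and in KO on the vertical axis, and the line marks equal change. Red circles are the 6 genes that passed in the interaction, with Dio2 at 3.28 in WT and 6.69 in KO far above the line and Socs2 at 3.36 and 1.49 below it, and blue squares are named genes that did not pass.

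The upstream sequence of Dio2 is shown because Dio2 had the largest interaction of the 6 genes that passed and is a known cAMP-induced gene, and that of Nr4a3 because all 3 members of its family, also induced by cAMP, had values above 1. Both are the 250 bases before the transcription start in RefSeq (GRCm38.p6), 5′ to 3′ on the strand of the gene: chr12:90739039-90739288 on the minus strand for Dio2 and chr4:48045055-48045304 on the plus strand for Nr4a3. Capitals mark TGACGTCA, the full palindromic cAMP response element, and TGACG, its shorter form, which appears as CGTCA on the other strand. Where the full element stands, both short forms lie inside it.
Dio2: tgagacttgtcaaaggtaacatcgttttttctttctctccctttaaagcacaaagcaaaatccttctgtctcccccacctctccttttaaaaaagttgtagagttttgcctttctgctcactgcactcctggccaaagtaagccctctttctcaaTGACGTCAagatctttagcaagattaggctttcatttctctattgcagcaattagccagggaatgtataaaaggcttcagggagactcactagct
Nr4a3: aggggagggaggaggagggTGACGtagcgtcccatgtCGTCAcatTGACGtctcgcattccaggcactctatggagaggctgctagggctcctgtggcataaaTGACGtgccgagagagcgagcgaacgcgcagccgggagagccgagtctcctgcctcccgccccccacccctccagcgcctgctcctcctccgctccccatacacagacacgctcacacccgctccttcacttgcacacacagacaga
The Dio2 window held TGACGTCA once, 95 bases before the start, and no other TGACG than those within it. The Nr4a3 window held 4 copies of TGACG, at 231, 213, 205 and 147 bases before the start, and no TGACGTCA. Searched on both strands, TGACGTCA stood in 1.55% and TGACG in 17.8% of 32851 promoter windows of the same length. Among 33 windows of the cAMP-induced and immediate-early genes described below, 3 held TGACGTCA and 18 held TGACG (54.5%). On either strand the Dio2 window held no E-box (CACGTG, in 6.02% of all windows). It held no nuclear receptor letters AGGTCA (14%). It also held neither the PAR bZIP letters TTATGTAA (0.819%) nor the heat shock letters GAANNTTC (6.69%). A match is a run of letters, not a measured binding site. Of the 6 genes that passed, 2 had an entry in the promoter table, Dio2 and Olfr519.

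Dio2 (chromosome 12) was 11.7-fold lower in KO brown fat at room temperature and overlapped WT after 4 h of cold. At 22 °C, log2 signals were 8.30, 8.47 and 8.46 for WT against 5.31, 5.0 and 4.27 for KO. WT cold arrays read 11.66, 11.66 and 11.75 and KO cold arrays 11.56, 11.70 and 11.38. The genotypes thus did not overlap at room temperature and overlapped in the cold, where all 6 arrays lay between 11.38 and 11.75. Cold raised Dio2 by 3.28 ± 0.21 (SE) in WT, a 9.69-fold rise, and by 6.69 ± 0.21 in KO, a 103-fold rise. The interaction was 3.41 ± 0.30 (95% interval 2.75 to 4.07, adjusted p = 0.0019). KO minus WT was -3.55 at room temperature (adjusted p = 1.14e-05) and -0.14 in the cold (adjusted p = 0.823). A second Dio2 probe set, with a mean signal of 2.32 below the array medians, gave -1.34 ± 0.39 (adjusted p = 0.294). Averaged with it, the gene's interaction was 1.04 (adjusted p = 0.219). The other 2 deiodinase genes had values between -0.20 and -0.09 and did not pass.

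Adam12 (chromosome 7), a membrane-anchored metalloprotease of the ADAM family, had a pattern like that of Dio2 in a smaller range. At room temperature, log2 signals were 6.42, 6.50 and 6.73 for WT against 5.23, 5.24 and 5.19 for KO. On the cold WT arrays it read 8.63, 8.66 and 8.72, and on the cold KO arrays 8.50, 8.61 and 8.42, so that the groups came close without overlapping. Cold raised Adam12 by 2.12 ± 0.12 in WT (4.34-fold) and by 3.29 ± 0.12 in KO (9.77-fold). The interaction was 1.17 ± 0.17 (adjusted p = 0.0453), just under the threshold, and it no longer passed in 15 of 22 other settings, among them 10 of the 12 fits without 1 array (adjusted p up to 0.135). KO was 2.51-fold lower at room temperature (-1.33, adjusted p = 1.98e-04) and differed by -0.16 in the cold (adjusted p = 0.586). The other 32 ADAM genes ranged from -0.99 to 0.89 and none passed.

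Tmem82 (chromosome 4), which encodes a transmembrane protein, was lower in KO at room temperature and higher in KO in the cold. On the 22 °C arrays, signals were 3.5, 2.87 and 3.27 for WT against 2.11, 1.54 and 2.19 for KO. After 4 h of cold, WT arrays gave 4.90, 5.17 and 5.15 and KO arrays gave 6.87, 6.78 and 6.10. The genotypes did not overlap at either temperature, and the order of the groups turned over. KO minus WT was -1.27 at room temperature (adjusted p = 0.0356) and 1.51 in the cold (adjusted p = 0.014). The cold rise was 1.86 in WT and 4.64 in KO, and the interaction was 2.78 ± 0.34 (adjusted p = 0.0135). The WT room temperature signals lie near the array medians (2.63 to 2.83) and the KO ones below them, so no fold is given and the size of the KO rise is uncertain. The call was lost without WT room temperature replicate 1 (adjusted p = 0.0507) and without any of the WT cold arrays (0.0544 to 0.058).

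Aloxe3 (chromosome 11), an epidermal lipoxygenase that turns fatty acid hydroperoxides into epoxyalcohols, was above 4 on every KO cold array and on no array of the other groups. At 22 °C, log2 signals were 2.34, 2.51 and 2.41 for WT against 2.18, 2.24 and 2.10 for KO, below or near the median signal of the arrays. The WT cold signals were 2.92, 3.37 and 2.88, and the KO cold signals were 4.75, 5.0 and 5.22, with no overlap. KO minus WT was -0.25 at room temperature (adjusted p = 0.612) and 1.93 in the cold (adjusted p = 1.93e-04). Cold changed it by 0.64 in WT (adjusted p = 0.015) and by 2.82 in KO, and the interaction was 2.18 ± 0.22 (adjusted p = 0.00475). It passed in each fit without 1 array. The other 7 genes whose symbols begin with Alox ranged from -0.55 to 0.42, and none passed.

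Socs2 (chromosome 10), a feedback inhibitor of growth hormone signalling that is itself induced through STAT5, was the gene that passed with a larger cold rise in WT. At room temperature, log2 signals were 6.16, 6.43 and 6.59 for WT against 7.33, 6.79 and 7.07 for KO. WT cold arrays read 9.89, 9.67 and 9.71 and KO cold arrays 8.30, 8.56 and 8.80. KO was the higher genotype at room temperature on every array and the lower one in the cold on every array. Cold raised Socs2 10.3-fold in WT (3.36 ± 0.18) and 2.81-fold in KO (1.49 ± 0.18). The interaction was -1.87 ± 0.25 (adjusted p = 0.0301). KO minus WT was 0.67 at room temperature (adjusted p = 0.132) and -1.20 in the cold (adjusted p = 0.0114), a 2.30-fold lower level. A second Socs2 probe set gave -1.18 ± 0.23 (adjusted p = 0.113), and the call was lost without any of 7 single arrays (adjusted p up to 0.123 without WT cold replicate 3). The other 6 SOCS genes ranged from -0.79 to 0.62. Of 14 growth hormone and STAT5 genes, Socs2 was the only one to pass, and the median of the list was -0.12.

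Olfr519 (chromosome 7), an olfactory receptor gene, passed at a signal below the array medians and was named after its value was seen. Its signal was 1.96, 2.22 and 1.98 (WT) and 1.08, 0.89 and 1.23 (KO) at room temperature, then 1.33, 1.57 and 1.27 (WT) and 2.49, 2.37 and 2.15 (KO) at 4 °C. Cold changed it in opposite directions, by -0.66 in WT and by 1.27 in KO, and the interaction was 1.93 ± 0.21 (adjusted p = 0.00483). Its mean of 1.71 lies in the range of probe sets with little or no signal, and no level of RNA is read from it.

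**Figure D2:**
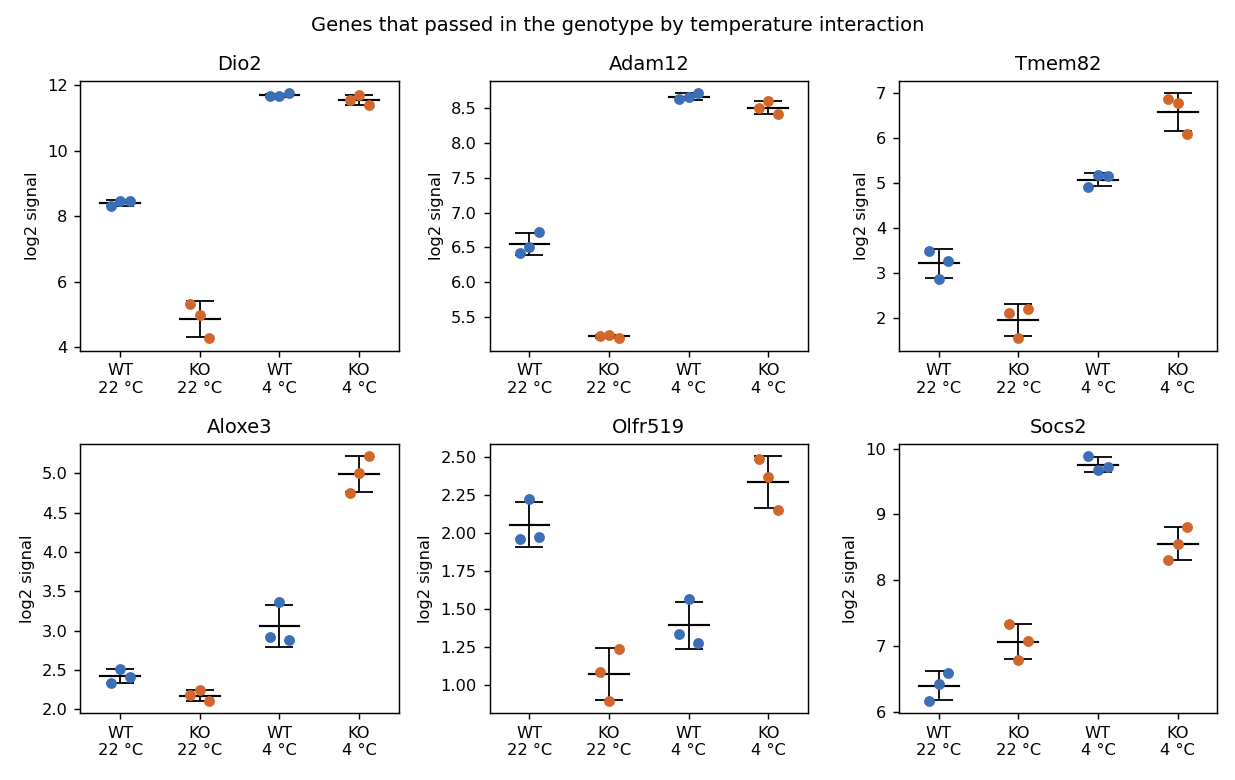
Log2 signal of the 6 genes that passed in the interaction on each of the 12 arrays, by genotype (WT blue, KO orange) and temperature, with group means (long bars) and SD (error bars, n = 3). Dio2 in KO lies between 4.27 and 5.31 at 22 °C and joins WT at 4 °C. Tmem82, Aloxe3, Olfr519 and Socs2 change the order of the genotypes between temperatures. The vertical axes differ between panels and do not start at 0.

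The 6 genes did not share a single pattern. Dio2 and Adam12 differed between genotypes by the test at room temperature and not in the cold. Aloxe3 and Socs2 differed in the cold and not at room temperature. Tmem82 and Olfr519 differed at both, with opposite signs. With the cold change averaged over both genotypes, 2859 genes rose, and all 6 genes were among them, although Olfr519 fell in WT. Of the 3165 that fell and the 16156 that did neither, 0 passed in the limma interaction. At an unadjusted p under 0.05, 183 of the genes that rose were higher (6.4%) and 229 lower (8.01%). Among those that fell, 148 were higher (4.68%) and 342 lower (10.8%), and among those that did neither, 684 (4.23%) and 738 (4.57%). Over all genes the shares were 4.58% and 5.9%, and over the 8475 brighter genes, whose mean reached 5, they were 3.83% and 9.18%. Such genes made up 2207 of the 2859 that rose, 2191 of the 3165 that fell and 4077 of the other 16156.

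Several genes came close to the threshold, among them Elovl4, an elongase that makes very long chain fatty acids. On the cold WT arrays it read 6.72, 6.32 and 6.73, and on the cold KO arrays 3.85, 2.62 and 2.60, against 2.15 to 2.96 in WT and 1.76 to 2.15 in KO at room temperature. The room temperature signals and those of 2 KO cold arrays lie near or below the array medians (2.63 to 2.83), so the size of the difference depends on values with little signal. The fitted cold differences were 3.91 in WT and 1.06 in KO, and KO cold replicate 1 stood above the other KO cold arrays. The interaction was -2.85 ± 0.45 (adjusted p = 0.057), and it passed in 5 of 21 other settings, with an adjusted p of 0.00478 without KO cold replicate 1. Got1, the cytosolic aspartate aminotransferase, started higher in KO at room temperature (1.15, adjusted p = 0.00138) and met WT in the cold (-0.05, adjusted p = 0.903). Its cold rise was 7.16-fold in WT and 3.11-fold in KO, and its interaction of -1.20 ± 0.18 did not pass (adjusted p = 0.0548). Slc4a4, a sodium bicarbonate cotransporter, had the opposite course, with KO minus WT of -1.22 at room temperature (adjusted p = 0.00138) and -0.08 in the cold, and an interaction of 1.14 ± 0.19 (adjusted p = 0.0622). Dnaja4, a cochaperone, rose by 2.31 in WT and differed by 0.26 from room temperature in KO (adjusted p = 0.499), with an interaction of -2.06 ± 0.31 (adjusted p = 0.0562). Tectb, a matrix protein of the inner ear, had -1.67 ± 0.24 (adjusted p = 0.0511), and the endoplasmic reticulum isomerase Fkbp14 had -0.95 ± 0.15 (adjusted p = 0.057). In other settings Dnaja4 passed in 7 of 22, Got1 in 5 of 22 and Tectb in 5 of 21. Got1, Slc4a4, Dnaja4, Tectb and Fkbp14 were named after their values were seen. Prc1, Tspan18 and Fam102b also came close to the threshold and are not described.

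Aplnr, the apelin receptor of endothelium, fell in the cold by 2.62 in WT and by 4.63 in KO, with an interaction of -2.01 ± 0.33 (adjusted p = 0.0622). At room temperature the genotypes differed by -0.03, and in the cold the WT arrays read 5.90, 5.65 and 6.53 and the KO arrays 4.40, 3.98 and 3.56. Vldlr, a receptor that takes up triglyceride-rich lipoproteins, fell by 1.56 in WT and changed by -0.01 in KO (adjusted p = 0.985). In the cold, 7.68, 7.61 and 7.79 on WT arrays stood against 8.41, 8.78 and 9.42 on KO arrays, and its interaction was 1.55 ± 0.29 (adjusted p = 0.088). Gys2, the liver form of glycogen synthase, had room temperature signals of 7.86, 8.33 and 8.59 in WT against 4.57, 5.39 and 4.74 in KO. After 4 h of cold, WT arrays gave 8.36, 8.44 and 8.52 and KO arrays gave 7.21, 7.20 and 6.47. Gys2 thus rose in KO (2.06, adjusted p = 1.85e-04) and stayed below WT at both temperatures, and its interaction of 1.88 ± 0.36 did not pass (adjusted p = 0.102). Lep, which encodes the adipocyte hormone leptin, fell in the cold by 2.23 in WT and by 5.30 in KO, with an interaction of -3.07 ± 0.81 (adjusted p = 0.248) and WT cold arrays spread from 4.70 to 7.16.

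Of 19 brown adipocyte thermogenic genes, 1 passed in the interaction (Dio2). Values lay above 0 for 15 of the 19 (14 after median centring), against 10770 of all 22180 genes. At an unadjusted p under 0.05, 5 were higher and 1 lower, and the median was 0.26 against -0.01 over all genes. The mean signal of the list was 8.46 to 8.56 on the WT arrays and 7.96 to 8.12 on the KO arrays at room temperature, and 8.89 to 8.99 and 8.73 to 8.90 in the cold. The cold minus room temperature difference of the list mean was 0.35 greater in KO, and 0.18 greater over the 18 genes other than Dio2. Ucp1 was 12.68, 12.41 and 12.50 (WT) and 12.01, 11.61 and 11.55 (KO) at room temperature, then 12.90, 12.95 and 12.81 (WT) and 12.80, 12.82 and 12.73 (KO) at 4 °C. KO was 1.74-fold lower for Ucp1 at room temperature (adjusted p = 0.0257) and overlapped WT in the cold. Its interaction was 0.69 ± 0.20 (95% interval 0.27 to 1.12), which did not pass (adjusted p = 0.282). The cold arrays lie near the highest signal on any array (13.37 to 13.52).

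Ppargc1a, the coactivator that drives mitochondrial biogenesis, had 9.15, 9.27 and 9.23 in WT and 9.15, 9.10 and 8.98 in KO at room temperature. The WT cold signals were 11.63, 11.49 and 11.50, and the KO cold signals were 12.27, 11.90 and 12.06. The cold rise was 5.0-fold in WT and 8.0-fold in KO, and the interaction was 0.68 ± 0.17 (adjusted p = 0.246). For Ppargc1a the genotypes differed by -0.14 at room temperature and by 0.54 in the cold (adjusted p = 0.0699). Otop1, a proton channel, had 0.66 ± 0.19 (adjusted p = 0.287). Elovl3, a fatty acid elongase known for its cold induction in brown fat, rose in both genotypes, by 4.81 in WT and 5.49 in KO, and its interaction was 0.69 ± 0.45 (adjusted p = 0.619). Cidea, a lipid droplet protein, had 0.19 ± 0.17. Among 27 transcription factors of brown adipocyte identity, 0 passed, 2 were higher and 1 lower at an unadjusted p under 0.05, and the median was -0.05 (0.03 after cyclic loess). Prdm16 had 0.26 ± 0.30 and Ebf2 0.56 ± 0.20 (adjusted p = 0.786 and 0.377), and both are regulators that hold brown adipocytes to their identity. Fgf21, a hormone that brown fat can secrete, had -0.54 ± 0.36 at a mean signal of 2.38. Hnrnpu, an RNA-binding protein, had 0.20 ± 0.17 (adjusted p = 0.697).

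Upstream of these genes, 0 of 18 beta-adrenergic receptors, G proteins and kinase A subunits passed, 3 were lower and 0 higher at an unadjusted p under 0.05, and the median was -0.23. That median came to 0.02 without KO cold replicate 1. Of 16 thyroid hormone genes, Dio2 passed, and 2 transporters of thyroid hormone or amino acids, Slc16a10 (0.84 ± 0.23, adjusted p = 0.268) and Slco1c1 (0.59 ± 0.22, adjusted p = 0.377), were among the 3 with an unadjusted p under 0.05. The median of these 16 genes was -0.07, with 7 values above 0 and 9 below. Slco1c1 had a mean signal of 1.41, below the array medians.

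Of 30 cAMP-induced and immediate-early genes, 0 passed, 5 were higher and 0 lower at an unadjusted p under 0.05, and the median was 0.29. Without KO room temperature replicate 1 the count of higher genes was 10, and without KO cold replicate 1 it was 11 with a median of 0.55. KO cold replicate 3, the array with the high neutrophil list, had the highest list mean (7.35), and without it the median was 0.16 with 5 higher and 1 lower. The orphan nuclear receptors Nr4a1, Nr4a2 and Nr4a3 had values of 1.48 ± 0.47, 2.00 ± 0.59 and 2.44 ± 0.61 (adjusted p = 0.321, 0.29 and 0.239). Nr4a3 was 6.89, 7.59 and 8.01 (WT) and 6.45, 4.43 and 4.79 (KO) at room temperature, then 9.78, 9.36 and 9.03 (WT) and 9.65, 9.51 and 9.5 (KO) at 4 °C. KO was lower at room temperature (-2.27, adjusted p = 0.041), with replicate 1 well above the other KO arrays, and the genotypes overlapped in the cold. Without that replicate the interaction was 3.05 (adjusted p = 0.0249). Nr4a1 at room temperature had 11.31, 11.49 and 11.68 in WT against 10.59, 9.65 and 9.33 in KO, but fell in the cold in WT (-1.58, adjusted p = 0.0061) and was unresolved in KO (-0.10, adjusted p = 0.884). Irs2, an insulin receptor substrate that CREB induces, had 9.74, 9.61 and 9.86 (WT) and 9.57, 8.70 and 8.82 (KO) at room temperature, then 9.98, 9.89 and 9.63 (WT) and 10.40, 10.51 and 10.22 (KO) at 4 °C. Its cold rise passed in KO (1.34, adjusted p = 7.12e-04) and not in WT (0.10, adjusted p = 0.823). The interaction of Irs2 was 1.25 ± 0.29 (adjusted p = 0.2) and reached 1.52 without KO room temperature replicate 1 (adjusted p = 0.034).

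**Figure D3:**
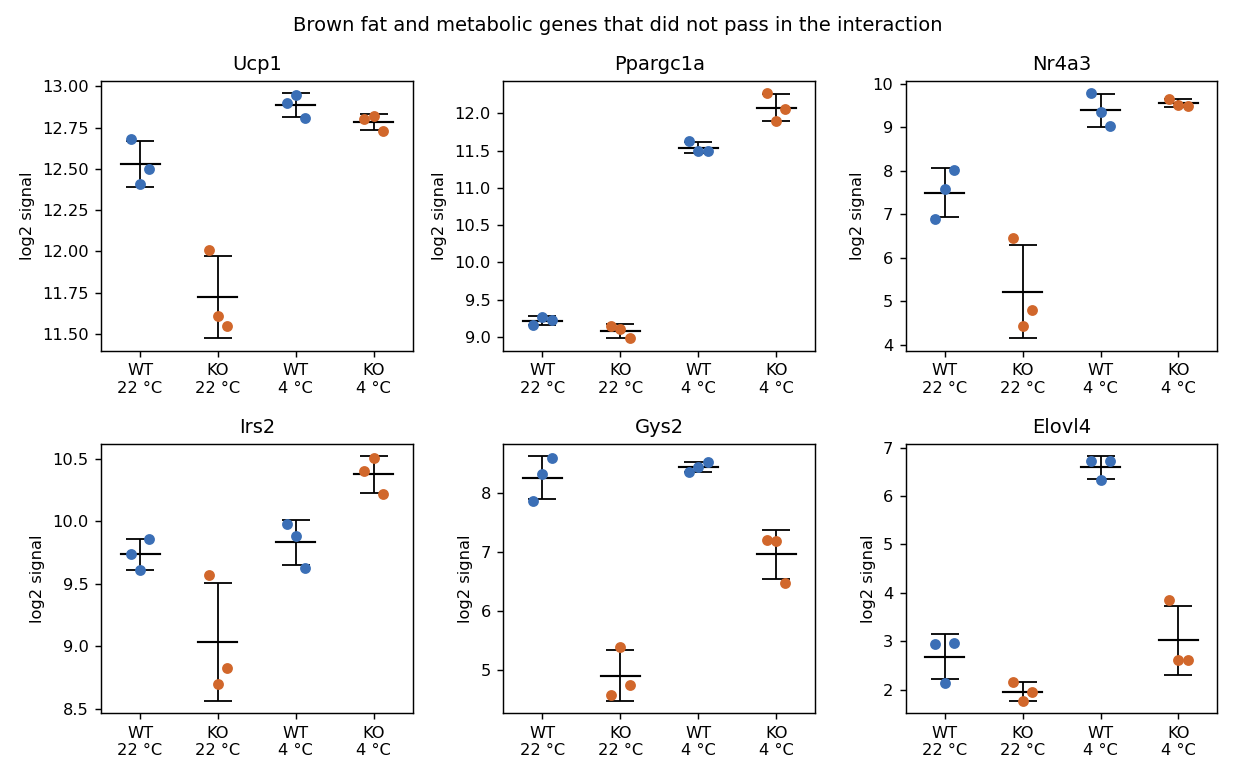
Log2 signal of 6 brown fat and metabolic genes that did not pass in the interaction, on each of the 12 arrays by genotype (WT blue, KO orange) and temperature, with group means and SD (n = 3). Ucp1, Nr4a3 and Gys2 are lower in KO at 22 °C, Elovl4 is high in WT cold alone (6.32 to 6.73), and the vertical axes differ between panels and do not start at 0.

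The lists of fuel metabolism held no gene that passed, and their counts at an unadjusted p under 0.05 rest on 0 to 3 genes in each direction. For 22 genes of mitochondrial fatty acid oxidation the median was 0.03, with 1 higher and 0 lower at an unadjusted p under 0.05. For 41 nuclear genes of oxidative phosphorylation it was -0.02, with 1 higher (Cox7c, a subunit of cytochrome oxidase, 0.73 ± 0.17) and 0 lower, and for 26 genes of the tricarboxylic acid cycle it was -0.12, with 2 higher. The first and the second of these medians changed sign between scalings. All 26 tricarboxylic acid cycle genes had a mean signal of at least 5, and the median over all such genes was -0.11. Glucose uptake and glycolysis genes (20) had 1 higher and 2 lower, among them the glucose transporter Slc2a1 (0.74 ± 0.26) and the phosphofructokinase regulator Pfkfb3 (-0.77 ± 0.29). Glycogen metabolism genes (22) had 2 higher and 3 lower, fat synthesis genes (20) 2 higher and 1 lower, and lipolysis and lipid uptake genes (20) 1 higher, Vldlr. Acyl-CoA thioesterases (16) had 2 higher and 0 lower, among them Acot1, which frees fatty acids from coenzyme A (1.62 ± 0.43).

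**Figure D4:**
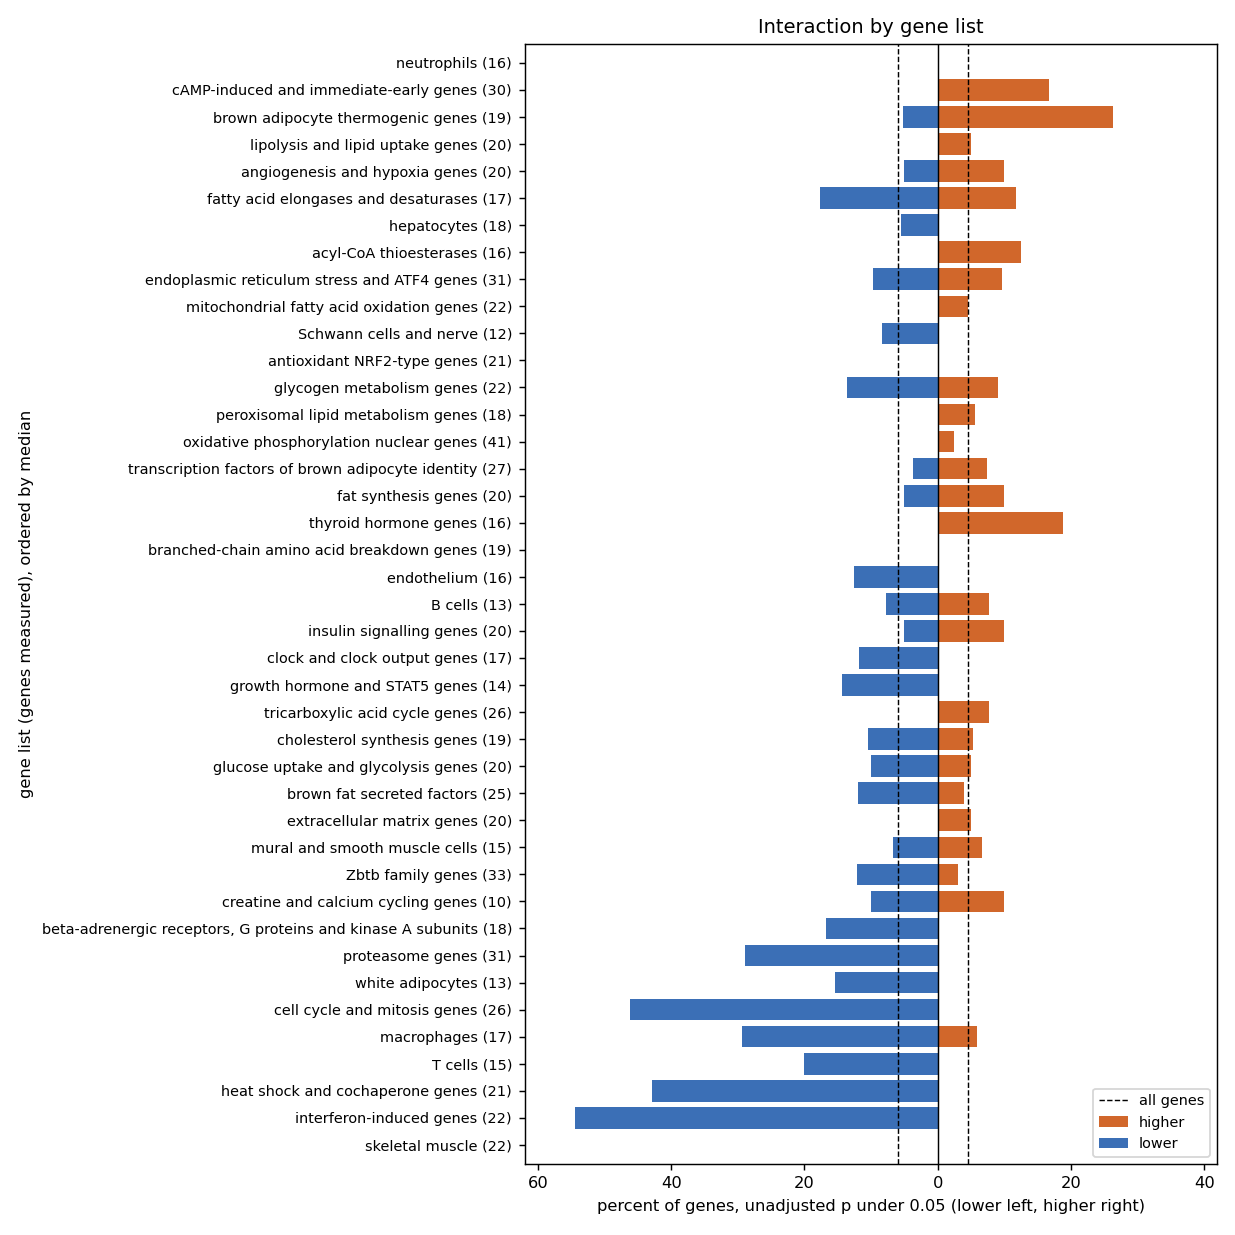
Percent of the measured genes of each list with an unadjusted p under 0.05 in the interaction, lower to the left (blue) and higher to the right (orange), with the number of genes measured in brackets and the lists ordered by their median. The erythroid list, with only 4 genes measured, is left out. Dashed lines give the same percent over all genes (4.58 higher, 5.9 lower). Over the 8475 brighter genes, whose mean reached 5, it was 3.83 higher and 9.18 lower. Lists beyond the line on the lower side include interferon-induced (54.5%), cell cycle (46.2%), heat shock (42.9%), macrophage (29.4%), proteasome (29%) and T cell (20%). Those beyond the line on the higher side include the thermogenic (26.3%) and cAMP-induced (16.7%) lists.

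The interaction values of heat shock and cochaperone genes lay below 0 for all 21 measured (19 after cyclic loess), while the mean of the list was higher on each cold array than on any room temperature array. By limma 0 passed, 0 were higher and 9 lower at an unadjusted p under 0.05, and the median was -0.59. The list mean at room temperature was 7.23 to 7.34 in WT and 7.26 to 7.53 in KO. WT cold arrays read 9.19, 9.0 and 9.09 and KO cold arrays 8.68, 9.01 and 7.90. KO cold replicate 3 was thus the lowest cold array, and without it the median was -0.30, with 8 lower. Ahsa2, a cochaperone of HSP90, had -1.54 ± 0.40 (adjusted p = 0.248), with 9.04, 8.33 and 8.27 in WT cold and 6.88, 7.35 and 6.34 in KO cold, which do not overlap. Hspa4l, an HSP110-type chaperone, rose by 2.45 in WT and by 1.13 in KO, with an interaction of -1.31 ± 0.43 (adjusted p = 0.331). The neutrophil list was highest on the same array (4.62), and its part in the result was not tested.

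Proteasome genes had 0 that passed, 0 higher and 9 lower of 31 at an unadjusted p under 0.05, and a median of -0.25. The number of lower genes was 1 without WT room temperature replicate 2, 2 without KO room temperature replicate 3 or WT cold replicate 1, 4 without KO cold replicate 1 and 6 after cyclic loess. Psmc6 and Psmc1, ATPases of the proteasome cap, had -0.57 ± 0.20 and -0.75 ± 0.28. Genes of endoplasmic reticulum stress and ATF4 (31) had 3 higher and 3 lower, with Dnajb9, a chaperone of the endoplasmic reticulum, at 1.10 ± 0.24 (adjusted p = 0.162) and Sdf2l1, a further such chaperone component, at -0.82 ± 0.25.

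Cell cycle and mitosis genes had values below 0 for 25 of 26 (24 after cyclic loess), with 0 that passed, 0 higher and 12 lower at an unadjusted p under 0.05 and a median of -0.50. The list mean was 3.46 to 3.61 in WT and 3.74 to 3.87 in KO at room temperature, and 3.67 to 3.88 in WT and 3.47 to 3.57 in KO in the cold. The order of the genotypes turned over without overlap at room temperature and in the cold, at a signal close to the array medians, and 2 of the 26 genes had a mean of at least 5. Mki67, the proliferation marker, was 4.17, 4.46 and 3.91 (WT) and 4.83, 4.80 and 4.62 (KO) at room temperature, then 4.53, 5.08 and 5.35 (WT) and 4.16, 4.23 and 4.19 (KO) at 4 °C. Its interaction was -1.36 ± 0.28 (adjusted p = 0.133). Cdk1, the mitotic kinase, had -1.08 ± 0.24 (adjusted p = 0.17). The number of lower genes stayed between 8 and 12 without any single array.

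Interferon-induced genes had values below 0 for 20 of 22 (19 after cyclic loess), with 0 that passed, 0 higher and 12 lower at an unadjusted p under 0.05 and a median of -0.88. At room temperature the list mean was 5.04, 5.06 and 5.19 on WT arrays against 5.30, 6.14 and 5.24 on KO arrays. On the cold WT arrays it read 5.18, 5.81 and 5.47, and on the cold KO arrays 4.93, 5.33 and 5.01. KO room temperature replicate 2 and WT cold replicate 2 stood highest in their groups, and without them the median was -0.60 and -0.66, each with 8 lower. Gbp9, a guanylate-binding protein induced by interferon gamma, fell by 1.23 in WT and by 3.15 in KO, with an interaction of -1.92 ± 0.33 (adjusted p = 0.0695). In the cold, 4.56, 4.94 and 4.72 on WT arrays stood against 2.64, 3.30 and 3.15 on KO arrays, without overlap, while at room temperature the genotypes overlapped. Cxcl9, a chemokine that attracts T cells, had -1.40 ± 0.40 (adjusted p = 0.282).

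The lists of immune cell markers differed among themselves. Of 15 T cell genes, 14 had values below 0, 0 passed, 3 were lower at an unadjusted p under 0.05 and the median was -0.58. The T cell list mean was highest on the same pair of arrays as the interferon list, 4.00 on KO room temperature replicate 2 and 4.15 on WT cold replicate 2, against 3.09 to 3.78 on the other 10. Without these arrays the median was -0.40 and -0.37. Cd8a, the co-receptor of cytotoxic T cells, was 2.45, 2.52 and 2.62 (WT) and 3.66, 3.71 and 3.19 (KO) at room temperature, then 3.44, 3.10 and 3.02 (WT) and 2.96, 2.69 and 2.86 (KO) at 4 °C. Its interaction was -1.34 ± 0.23 (adjusted p = 0.0695), at a signal near the array medians. Of 17 macrophage genes, 0 passed, 1 was higher (Mertk, a receptor for the uptake of dying cells, 0.50 ± 0.17) and 5 lower, among them Csf1r (-0.89 ± 0.25) and the complement genes C1qa and C1qc (-0.90 ± 0.31 and -1.07 ± 0.33), and the median was -0.51. Values lay above 0 for 6 of the 17 and below 0 for 11. The macrophage list mean was higher in the cold in both genotypes, by 0.55 in WT and by 0.27 in KO, and the KO cold arrays read 5.80 to 6.46. Of 13 B cell genes, 1 was higher and 1 lower. Of 16 neutrophil genes none had an unadjusted p under 0.05 in either direction, and their median of 0.78 became -0.15 without KO cold replicate 3. How far cell numbers enter the interferon and cell cycle values was not tested.

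The skeletal muscle list had a median of -1.94 over 22 genes, the lowest of all 42 lists, and 0 genes with an unadjusted p under 0.05 in either direction. Its array means were 3.26, 6.10 and 3.16 (WT) and 8.21, 7.27 and 3.46 (KO) at room temperature, then 5.03, 6.92 and 7.36 (WT) and 7.98, 4.50 and 7.83 (KO) at 4 °C. Arrays of the same group were thus far apart in each of the 4 groups. With the muscle list mean as a covariate, 5 of the 6 genes passed, Adam12 did not (adjusted p = 0.0632), and 10 genes passed in all.

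**Figure D5:**
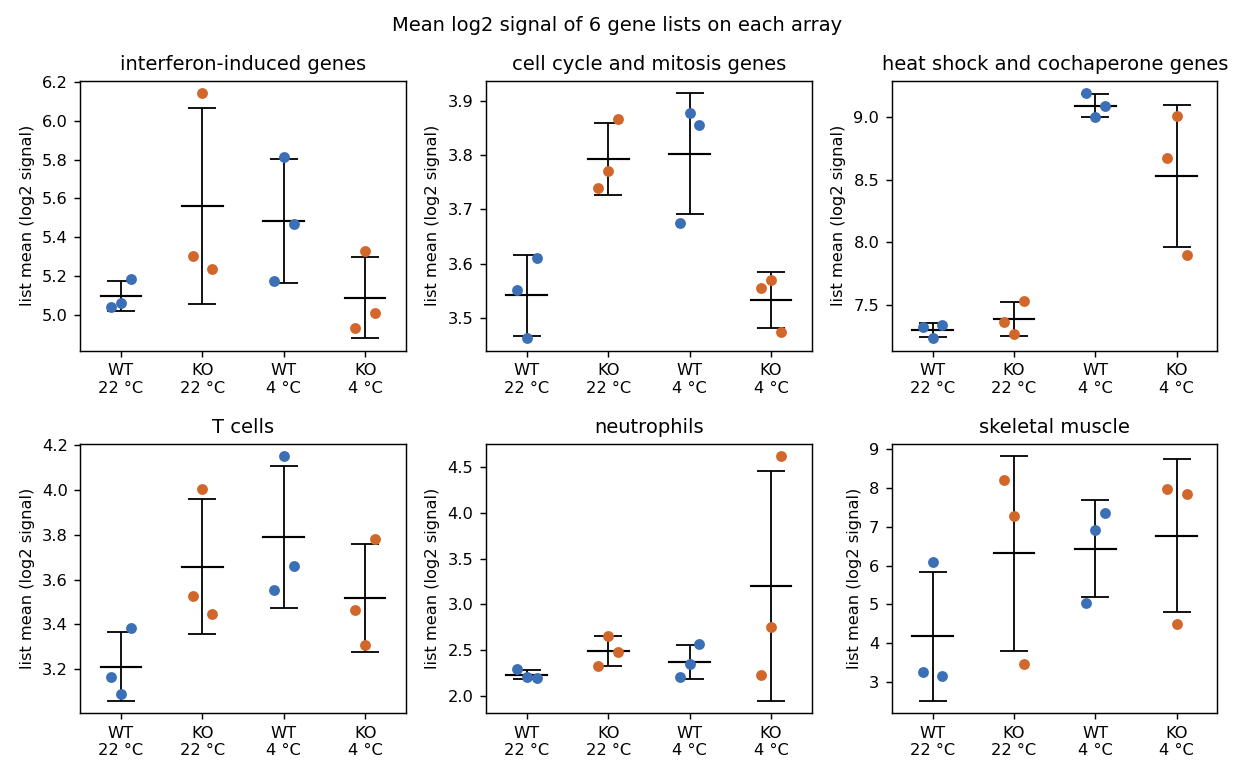
Mean log2 signal of 6 gene lists on each of the 12 arrays, by genotype (WT blue, KO orange) and temperature, with group means and SD (n = 3). The cell cycle list is higher in KO at 22 °C and lower in KO at 4 °C, the neutrophil list stands at 4.62 on KO cold replicate 3, the muscle list spreads widely in every group, and the vertical axes differ between panels and do not start at 0.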

How the data were processed

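The 12 samples were hybridised to whole-transcript arrays. Per the labels, the deposited values are log2 RMA signals, in which the authors' processing corrected background, equalised the arrays and summarised probes. The submitters' processing notes name oligo, RMA and limma, without versions. Raw scans were not used here. Groups came from the titles and tissue labels. Of 41345 probe sets, 23521 carried exactly 1 symbol, 1814 several and 16010 none. Of the probe sets of 1082 genes that had several, the brightest by its mean was used. No gene was left out for low signal, and 22180 remained.

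All 12 arrays entered 1 limma fit (3.58.1, R 4.3.3) of the 4 group means, with eBayes. Tests were two-sided, with Benjamini-Hochberg adjustment over all genes of a contrast. The fit was run on simulated data with independent noise in each gene and no differences shared by whole arrays. That run checks the calculation only, since the real arrays do share such differences. No fold is given where a group mean is under 4. The number of arrays, 3 per group, and their spread limit the precision. The titles give a replicate number and name no pairing. Deviations of same-numbered arrays correlated between -0.54 and 0.45, above 0.1 in 6 of 18 pairs. Those of differently numbered arrays correlated between -0.56 and 0.63, above 0.1 in 15 of 36 pairs. With 3 arrays per group, these values cannot show whether same-numbered arrays shared a batch.

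The 42 gene lists held 874 symbols, 798 of them measured, and were described by counts and medians. The comparison, lists and settings were chosen with earlier results of these data known. The rule named up to 15 genes in each direction among those that passed, except predicted genes, clones, pseudogenes, small RNAs and receptors of smell, pheromones or taste. Added to these were up to 4 genes per described list, by smallest p, and Zbtb7b, Ucp1, Dio2, Elovl3, Elovl4, Ppargc1a, Cidea, Prdm16, Ebf2, Fgf21, Gys2, Nr4a3 and Hnrnpu. Other settings covered the probe set rule, a mean signal of at least 5, cyclic loess, median centring, a trended robust spread, array weights, a replicate block, a 1.5-fold minimum change, the muscle list mean as a covariate and each array left out.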

Additional observations from a re-analysis of the deposited data

Results flagged for a closer look

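In 6 genes the effect of cold differed between the genotypes by the test of the difference itself, the interaction in limma adjusted over 22180 genes. The cold change was more positive in KO for Dio2 (3.41), Tmem82 (2.78), Aloxe3 (2.18), Olfr519 (1.93) and Adam12 (1.17), and more positive in WT for Socs2 (-1.87). Dio2 ranged from 3.11 to 3.64 over the fits without 1 array, and Olfr519 lies below the median signal of every array.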

How the results depend on the processing

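Against 6 in all, 26 passed above a mean signal of 5 (3 of the 6, since Aloxe3, Tmem82 and Olfr519 are too dim to enter), 17 after median centring, 19 with a trended robust spread and 22 with array weights (all 6 in each of these), 10 with the muscle covariate (5 of the 6), 3 with probe sets averaged by gene (3 of the 6) and 1 with the 1.5-fold minimum change, Dio2. Every probe set on its own gave 5, all among the 6, and cyclic loess gave the same 6. Fits without 1 array gave 3 to 20 genes and kept 3 to 6 of the 6. The lowest counts came without WT cold replicate 1, 2 or 3, and those of 11, 12 and 20 without KO room temperature replicate 1, KO cold replicate 3 and KO cold replicate 1. Without WT room temperature replicate 1, 3 of the 6 were kept. With the replicate block 7 genes passed, 4 of them among the 6, without Adam12 (adjusted p = 0.0973) and Socs2 (0.064). Whether the title numbers pair the arrays is not known. In a setting added after seeing the data, a fit of all 41345 probe sets, 3 passed, and 0 of the 16010 without a symbol. Apart from the dim second probe set of Dio2, no gene that passed changed its sign in any setting.

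The fit of all 41345 probe sets, in which 3 passed, is not counted in what follows. In the other settings, Dio2 was lost only with its probe sets averaged (1.04, adjusted p = 0.219), Aloxe3 and Olfr519 only under the 1.5-fold minimum (adjusted p = 0.0621 and 0.0739), Tmem82 in 5 settings, Socs2 in 10 and Adam12 in 15. The cause of these losses was not tested. Of the medians of the heat shock, proteasome, cell cycle, interferon and T cell lists, each stayed below 0 in the 21 other settings that gave one. The skeletal muscle (-3.14 to -0.12) and macrophage (-0.63 to -0.25) medians did so too. All settings reuse the same arrays, so a sign that stays is not independent support and does not set these lists apart.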
